A study of Mus musculus with 13 samples.

Results

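RNA levels of 46 genes of the DNA damage response and DNA repair were followed in 13 mouse basal cell carcinomas (BCC). The genes were listed by symbol and role from the 21100 genes of the deposited table. Their levels were not used, though earlier results of these data were known. Of the 46 genes, 13 act in homologous recombination, 11 in the Fanconi pathway, 6 in end joining, 4 in mismatch repair, 7 in excision repair and 5 in damage signalling. All 46 had values in every tumor and passed the count filter, so all are among the 14390 genes tested.

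Cells repair a break through both DNA strands by homologous recombination, which copies the intact sister strand after replication, or by end joining, which ligates the ends directly. The Fanconi proteins unhook crosslinks that block replication forks, mismatch repair corrects copying errors, and excision repair removes damaged bases or bulky lesions such as those made by ultraviolet light, the main mutagen of skin. The kinases Atm and Atr detect the damage and, through Chek2 and Chek1, halt the cell cycle.

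The 2 models compared were genetically engineered tumors (GEM-BCC, 9 tumors of 7 mice) and transplanted tumors (Tp-BCC, 4 tumors of 4 mice), with 1 poly(A) RNA library per tumor, to see how far the transplanted model keeps the expression profile of its parent. GEM-BCC mice were female Ptch1+/- K14-CreER2 p53fl/fl animals, in which the keratin 14 promoter drives a tamoxifen-activated Cre in basal keratinocytes. Their dermal tumors followed 300 µg of tamoxifen given 3 times and an X-ray dose of 4 Gy, so the GEM-BCC skin was itself irradiated. Tp-BCC tumors grew under the skin of the flank in female, immunocompetent Ptch1+/- p53fl/fl mice that carry no Cre, from inoculated cells of a line passaged in mice and derived from 1 GEM-BCC tumor. The 4 Tp-BCC tumors are therefore 1 lineage, and GEM2 and GEM3 grew on the same mouse, as did GEM7 and GEM8. Ages are not given in the labels.

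Every tumor expressed the basal keratinocyte gene Krt14 (918 CPM or more, where CPM are counts scaled to the size of the library) and the Hedgehog target Gli1 (376 CPM or more). Trp53, the gene floxed in both models, was at 29.9 to 61.7 CPM in GEM-BCC and 19.8 to 30.4 CPM in Tp-BCC tumors. Its log2 fold change (Tp-BCC over GEM-BCC) was −0.84 (edgeR quasi-likelihood test, Benjamini-Hochberg adjusted p = 0.0211). At an adjusted p under 0.05, 8.35% of all tested genes fell. Counts per gene do not show whether the floxed exons of Trp53 were lost. Total counts per library ran from 28075317 to 32629102 for GEM-BCC tumors, while Tp-BCC libraries held fewer, 15388027 to 17494912. All GEM-BCC libraries form batch 1 and all Tp-BCC libraries batch 2, so model and batch cannot be told apart. In bulk tumors, fewer cells of a type and less RNA per cell cannot be told apart either.

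The Tp-BCC libraries fell into 2 kinds, and repair genes were among those that differed between them. Across genes, the deviation of log2 CPM from the all-tumor average followed the GC content of the transcript with a Spearman rho of −0.40 in TP1 and −0.48 in TP3, but of 0.60 in TP2 and 0.61 in TP4. In GEM1 it was 0.36 and in the other GEM-BCC tumors −0.32 to −0.14. TP2 and TP4 both lay below TP1 and TP3 in 30 of the 46 repair genes, against 35.9% of all tested genes, and both lay above in 14, against 43.6%.

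The repair genes span much of the range of GC content, which is why those at either end are shown. Atr, the kinase that answers to stalled replication forks, had the lowest GC content of the 46 (40.8% of an 8102-base transcript), and H2ax, the histone that is phosphorylated around breaks, the highest (62.3% of 1384 bases). The stretches that follow are 150 coding bases of each, chosen as those nearest in GC content to the whole transcript, with G and C in capitals. They come from GENCODE vM21 on GRCm38, plus strand, with Atr at chr9:95865101-95865250 in exon 4 of 47 and H2ax at chr9:44334905-44335054 in its single exon.
Atr: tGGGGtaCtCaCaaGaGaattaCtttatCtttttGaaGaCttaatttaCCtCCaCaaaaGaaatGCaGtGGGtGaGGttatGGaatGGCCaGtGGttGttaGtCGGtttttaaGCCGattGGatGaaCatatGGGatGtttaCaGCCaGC
H2ax: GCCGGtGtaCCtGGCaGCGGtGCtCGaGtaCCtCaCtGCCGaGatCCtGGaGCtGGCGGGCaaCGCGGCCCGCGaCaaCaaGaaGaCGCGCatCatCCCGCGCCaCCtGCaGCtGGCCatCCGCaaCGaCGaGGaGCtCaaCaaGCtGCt

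Atr had 23.8 CPM in TP1, 1.67 in TP2, 35.4 in TP3 and 2.57 in TP4, while GEM-BCC tumors had 10.9 to 35.0 CPM (median 27.0). H2ax had 66.4 CPM in TP1, 123 in TP2, 73.1 in TP3 and 171 in TP4, and 42.4 to 231 CPM (median 88.4) in GEM-BCC tumors. TP2 and TP4 were thus below every GEM-BCC tumor for Atr and above the other two Tp-BCC tumors for H2ax. Over the 46 genes, the difference between the mean log2 CPM of TP2 and TP4 and that of TP1 and TP3 ran from −3.76 (Atr) to 1.19 (Ung) and followed GC content with r = 0.83 and rho = 0.78 (n = 46 genes, which share the same 4 libraries). Over all 14275 tested genes with a GC value r was 0.76 and rho 0.81. Median GC content was 46.3% in the repair genes and 50.6% in all tested genes.

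**Figure D1:**
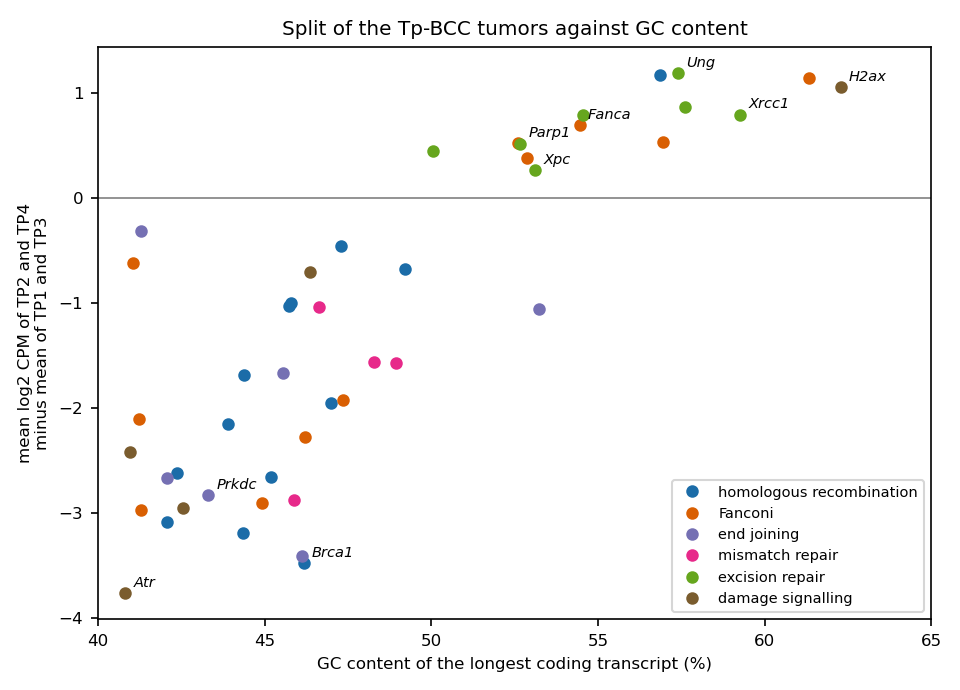
Each point is 1 of the 46 repair genes, coloured by pathway, with the GC content of its transcript (%) on the x axis and the difference in mean log2 CPM between TP2 and TP4 and TP1 and TP3 on the y axis. Genes of low GC content such as Atr and Brca1 lie far below 0, and 14 genes, among them Ung, Xrcc1 and H2ax, lie above 0.

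Because of this split, genes past the test are also given with the GC trend of every tumor removed and without TP2 and TP4. The SD of log2 CPM over tumors, as a median over the 46 genes, came to 0.49 for GEM-BCC and to 0.87 for Tp-BCC, and to 0.43 and 0.48 once the GC trend was removed. Most repair genes (36 of 46) had the larger SD in Tp-BCC, as did 62.8% of all tested genes.

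**Figure D2:**
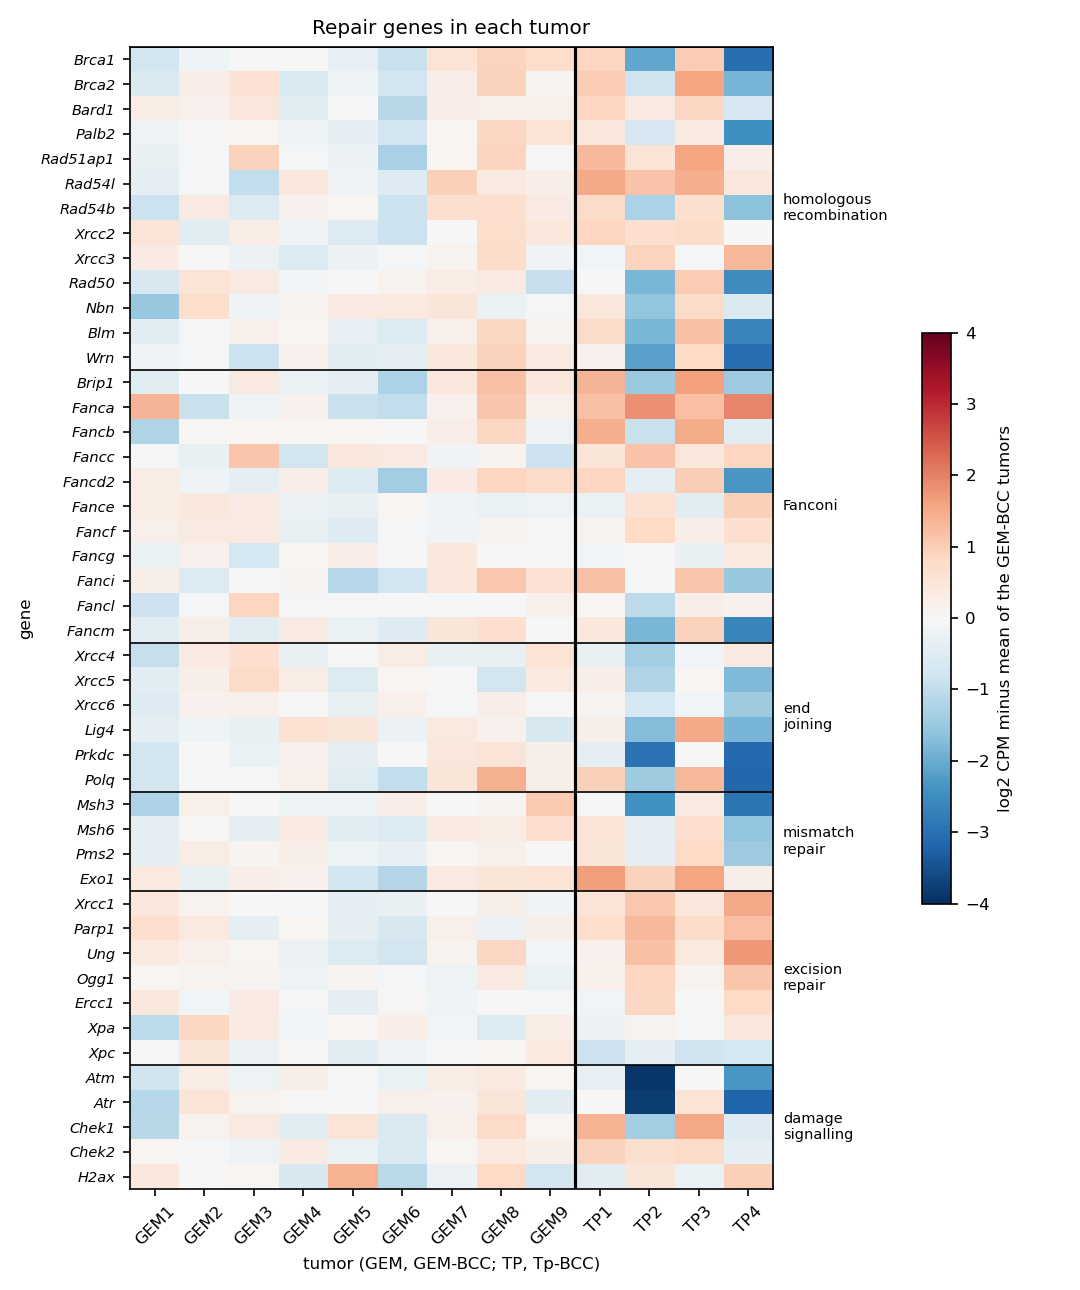
Colours give log2 CPM of each repair gene (rows, by pathway) in each of the 13 tumors (columns) minus the mean of the 9 GEM-BCC tumors. TP2 and TP4 are blue for most genes of homologous recombination, end joining and mismatch repair and red for most of excision repair, while TP1 and TP3 resemble each other.

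Of the 46 repair genes, 6 rose in Tp-BCC and 1 fell (edgeR quasi-likelihood test, 2-sided, Benjamini-Hochberg adjusted p under 0.05 over all genes), where 11.1% of all tested genes rose and 8.35% fell. The genes that rose were Rad54l, Fanca, Exo1, Xrcc1, Parp1 and Ung, and Xpc fell. Together 7 of 46 passed, where 19.4% of all genes did, so the share among repair genes was near that of all genes. The median log2 fold change (Tp-BCC over GEM-BCC) was 0.13 for the 46 genes, 28 of them above 0. For all 14390 tested genes it was −0.03, with 6990 above 0. The fold threshold of the study was an absolute log2 fold change above 2. At this threshold 0 of 46 genes passed against 5.57% of all genes (0 against 6.30% with DESeq2). The study applied it to fold changes after adaptive shrinkage. Those here were not shrunk, so these shares are not those of the study. An unadjusted p under 0.05 was reached by 12 of the 46 genes and by 4964 of all 14390 tested genes. Xrcc1 and Parp1 were the 2 genes whose Tp-BCC tumors all lay above every GEM-BCC tumor (5.50% of all genes), and for 0 genes did all lie below (4.45%).

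The choice of Tp-BCC libraries changed which genes passed. With the GC trend removed 11 of the 46 rose (15.1% of all genes) and 3 fell (13.9%). Without TP2 and TP4, 5 rose (5.87% of all genes) and 1 fell (4.51%), with a median log2 fold change of 0.51. Without TP1 and TP3 instead, 8 rose (19.1%) and 17 fell (23.8%), with a median of −0.73.

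**Figure D3:**
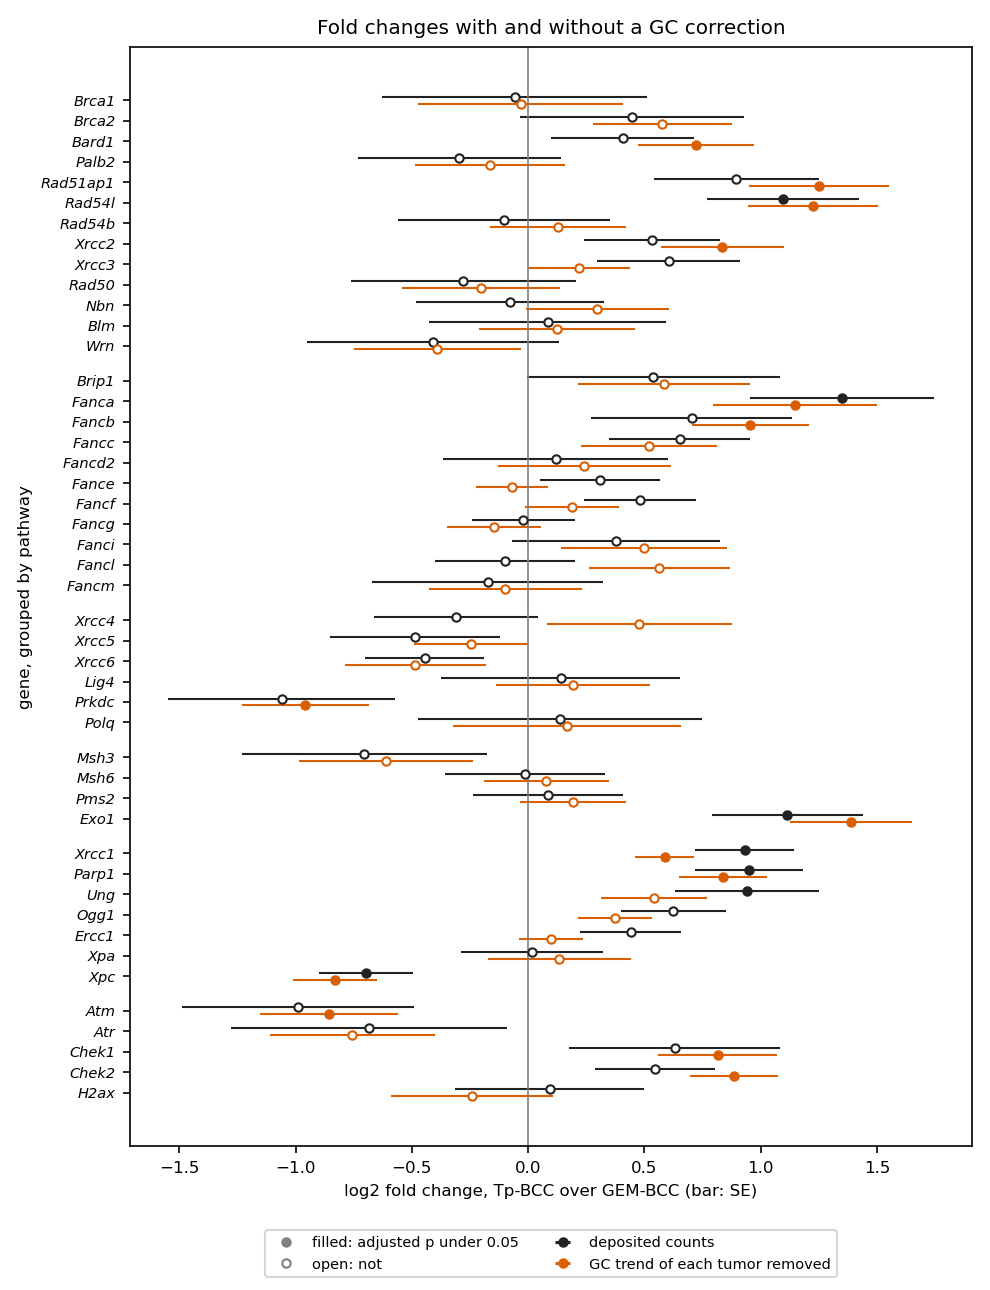
Log2 fold changes of the 46 repair genes, Tp-BCC over GEM-BCC, with SE bars (n = 4 and 9 tumors), from the deposited counts (black) and with the GC trend of each tumor removed (orange). Filled symbols mark an adjusted p under 0.05, which 7 genes reached in the first fit and 14 in the second.

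Homologous recombination, with the breast cancer proteins Brca1 and Brca2 at its core, had 1 of 13 genes past the test (19.4% of all genes). Rad54l, a motor protein that moves along DNA during strand exchange, had 2.94, 5.67 and 11.4 CPM as lowest, median and highest value in GEM-BCC tumors and 16.8, 12.99, 16.1 and 8.14 CPM in TP1 to TP4. TP1, TP2 and TP3 exceeded every GEM-BCC tumor and TP4 lay within their range. Rad54l rose by 1.10 on the log2 scale (SE 0.33, adjusted p = 0.0284), with 1.23 (adjusted p = 0.00510) when the GC trend was removed and 1.38 (adjusted p = 0.0387) without TP2 and TP4. Its adjusted p reached 0.0787 when 1 Tp-BCC tumor was left out, passing without TP4 but not without TP1, TP2 or TP3.

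Rad51ap1, which binds DNA and stimulates strand invasion, was one of the 2 best-expressed genes of this pathway per kilobase. It had 3.59, 8.68 and 17.02 CPM as lowest, median and highest GEM-BCC value and 22.2, 13.2, 26.8 and 10.8 CPM in TP1 to TP4, so TP1 and TP3 alone exceeded the GEM-BCC range. Its log2 fold change was 0.89 (SE 0.35, adjusted p = 0.0872), and 1.25 (SE 0.30, adjusted p = 0.00737) with the GC trend removed. The other was Nbn, part of the complex that first binds a break, with 4.83, 15.6 and 23.0 CPM in GEM-BCC and 19.4, 4.69, 24.0 and 9.50 CPM in TP1 to TP4. The ranges overlapped widely (log2 fold change −0.08, SE 0.40, adjusted p = 0.911).

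Brca1 showed how far the Tp-BCC libraries diverged. It had 10.1, 18.8 and 35.3 CPM in GEM-BCC tumors, 34.0 and 38.0 CPM in TP1 and TP3, and 4.37 and 2.29 CPM in TP2 and TP4, from 68 and 32 counts. TP1 lay near the top of the GEM-BCC range, TP3 above it, and TP2 and TP4 below it. The log2 fold change over all tumors was −0.06 (SE 0.57, adjusted p = 0.953), against 0.81 (adjusted p = 0.193) without TP2 and TP4 and −2.61 (adjusted p = 0.00195) without TP1 and TP3. Brca2, Palb2, which holds Brca1 and Brca2 together, Rad54b, Rad50, which tethers broken ends, and the helicases Blm and Wrn were also lower in TP2 and TP4 than in TP1 and TP3, with differences of −3.19 to −1.95 on the log2 scale, and had no call over all tumors. Not all of them left the GEM-BCC range, with Palb2 at 3.67 CPM in TP2 against a lowest GEM-BCC value of 3.41 CPM. With the GC trend removed Bard1, the partner of Brca1 (0.72, adjusted p = 0.0414), and Xrcc2, which acts early in strand exchange (0.83, adjusted p = 0.0292), rose as well as Rad51ap1 and Rad54l. Xrcc3, a further recombination gene of high GC content (56.9%), ran the other way, with 12.3 and 16.9 CPM in TP2 and TP4 and 6.24 and 6.46 CPM in TP1 and TP3.

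In the Fanconi pathway 8 of 11 genes had a log2 fold change above 0 (median 0.38) and 1 passed. Of all 14390 tested genes, 6990 were above 0 and 19.4% passed. Fanca, a subunit of the core complex that ubiquitinates Fancd2 and Fanci, had 8.85, 19.6 and 44.8 CPM as lowest, median and highest value in GEM-BCC tumors and 39.4, 62.1, 40.3 and 67.5 CPM in TP1 to TP4. Only GEM1 among the GEM-BCC tumors reached the Tp-BCC range. Fanca rose by 1.35 (SE 0.39, adjusted p = 0.0262), the largest log2 fold change among the 46, and by 1.15 (adjusted p = 0.0252) with the GC trend removed. Without TP2 and TP4 the value was 0.97 (adjusted p = 0.234), and leaving out TP2 or TP4 alone also ended the call.

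Fance and Fancc, core complex members too, were the best expressed of the pathway per kilobase, with medians of 13.2 and 11.4 CPM per kb in GEM-BCC tumors. Fance had 23.9, 26.7 and 39.9 CPM as lowest, median and highest GEM-BCC value and 24.5, 45.5, 21.7 and 57.5 CPM in TP1 to TP4, with TP2 and TP4 above and TP1 and TP3 at or under the low end of GEM-BCC (log2 fold change 0.31, SE 0.26, adjusted p = 0.419). Fancc had 21.3, 36.1 and 81.3 CPM in GEM-BCC and 52.9, 83.0, 52.2 and 68.9 CPM in TP1 to TP4, with TP2 alone above the GEM-BCC range (0.65, SE 0.30, adjusted p = 0.141). Fancb, whose gene lies on the X chromosome, had 8.95 and 9.22 CPM in TP1 and TP3, above the highest GEM-BCC value of 5.84, but 1.74 and 2.43 CPM in TP2 and TP4 (0.70, adjusted p = 0.264). It rose with the GC trend removed (0.96, SE 0.25, adjusted p = 0.0119) and without TP2 and TP4 (1.40, adjusted p = 0.0327). Fancd2 and Fanci, the pair that the core complex modifies, had log2 fold changes of 0.12 and 0.38 and did not pass in either fit, nor did Fancf, Fancg and Fancl of the core complex or the helicases Brip1 and Fancm (−0.17 to 0.54).

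In end joining 0 of 6 genes passed in edgeR (19.4% of all genes) or DESeq2 (26.0%). An unadjusted p under 0.05 was reached by 1 of the 6 and by 4964 of all 14390 tested genes. The median log2 fold change of the 6 genes was −0.38 over all tumors. It was −0.04 with the GC trend removed and 0.04 without TP2 and TP4. Xrcc5 and Xrcc6 form the Ku ring that threads onto broken ends. Xrcc5 had 27.3, 50.01 and 79.2 CPM as lowest, median and highest GEM-BCC value and 56.6, 20.3, 49.98 and 13.9 CPM in TP1 to TP4 (log2 fold change −0.49, SE 0.36, adjusted p = 0.359). Xrcc6 had 29.3, 43.7 and 50.6 CPM in GEM-BCC and 44.9, 25.9, 38.9 and 15.5 CPM in TP1 to TP4 (−0.44, SE 0.26, adjusted p = 0.230). For both Ku genes TP1 and TP3 lay inside the GEM-BCC range and TP2 and TP4 below it.

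Prkdc, the kinase that Ku recruits, was the gene at an unadjusted p under 0.05. It had 19.0, 32.2 and 46.3 CPM in GEM-BCC and 24.6, 4.05, 31.4 and 3.64 CPM in TP1 to TP4 (−1.06, SE 0.49, adjusted p = 0.137). With the GC trend removed Prkdc fell by 0.96 on the log2 scale (SE 0.27, adjusted p = 0.0170), while without TP2 and TP4 the value was −0.25 (adjusted p = 0.617). Xrcc4 and Lig4, which seal the joint, and Polq, the polymerase of the error-prone route, had log2 fold changes of −0.31, 0.14 and 0.14. Polq rested on 8 counts in TP4 and 32 in TP2, against 186 and 235 in TP1 and TP3.

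Mismatch repair had 1 of 4 genes past the test (19.4% of all genes). Exo1, the exonuclease that removes the strand carrying the mismatch and also resects breaks, had 5.03, 13.8 and 16.6 CPM as lowest, median and highest GEM-BCC value and 36.4, 21.8, 34.0 and 13.5 CPM in TP1 to TP4. TP4 alone lay inside the GEM-BCC range. Exo1 rose by 1.11 on the log2 scale (SE 0.32, adjusted p = 0.0259), by 1.39 (adjusted p = 0.00170) with the GC trend removed and by 1.53 (adjusted p = 0.0150) without TP2 and TP4. The call was lost without TP1 or without TP3 (adjusted p up to 0.0867).

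The genes that recognise mismatches did not pass. Msh6 was the best expressed of them per kilobase, with 43.5, 65.6 and 101.7 CPM in GEM-BCC tumors and 91.0, 49.2, 99.96 and 21.0 CPM in TP1 to TP4 (−0.01, SE 0.34, adjusted p = 0.985). Msh3 had 5.33, 12.9 and 26.4 CPM in GEM-BCC and 13.3, 2.32, 16.4 and 1.64 CPM in TP1 to TP4 (−0.70, SE 0.53, adjusted p = 0.361). TP2 and TP4 lay below every GEM-BCC tumor for Msh3, while for Msh6 this held for TP4 alone. Pms2, which nicks the strand to be replaced, had a log2 fold change of 0.08.

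Excision repair held 4 of the 7 genes past the test, and 6 of its 7 genes had a log2 fold change above 0. Among all 14390 tested genes, 19.4% passed and 6990 were above 0. Its median was 0.62 over all tumors, 0.37 with the GC trend removed (Fanconi 0.50) and 0.17 without TP2 and TP4 (homologous recombination 0.73). It was also the group of highest GC content, with a median of 54.6% against 42.6% to 47.5% in the other 5 groups. Xrcc1, the scaffold on which single-strand breaks are closed, had 52.2, 67.9 and 93.2 CPM as lowest, median and highest GEM-BCC value and 96.1, 141, 93.4 and 191.5 CPM in TP1 to TP4. The models did not overlap, though TP3 cleared the highest GEM-BCC tumor by less than 1 CPM. Mean levels were 68.5 ± 12.5 CPM (SD, n = 9) and 130.6 ± 46.2 CPM (n = 4), and Xrcc1 rose by 0.93 on the log2 scale (SE 0.21, adjusted p = 0.00734).

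Parp1, which senses single-strand breaks and marks them with ADP-ribose, had 59.5, 98.5 and 147.5 CPM in GEM-BCC and 152, 228.5, 156 and 213 CPM in TP1 to TP4, again without overlap. Parp1 rose by 0.95 (SE 0.23, adjusted p = 0.0110), from a mean of 97.0 ± 28.3 CPM (SD, n = 9) to 187 ± 39.3 CPM (n = 4). Both genes passed with the GC trend removed (Xrcc1 0.59, adjusted p = 0.00384, and Parp1 0.84, adjusted p = 0.00502) and whichever single tumor was left out. Without TP2 and TP4 the values were 0.47 (adjusted p = 0.132) for Xrcc1 and 0.67 (adjusted p = 0.131) for Parp1.

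Ung, the glycosylase that removes uracil from DNA, had 12.8, 22.5 and 38.4 CPM in GEM-BCC and 24.1, 48.9, 27.9 and 72.3 CPM in TP1 to TP4. TP1 and TP3 lay inside the GEM-BCC range and TP2 and TP4 above it. Ung rose by 0.94 (SE 0.31, adjusted p = 0.0441), but the value was 0.54 (adjusted p = 0.0871) with the GC trend removed, 0.21 (adjusted p = 0.7096) without TP2 and TP4, and the call was lost in 9 of the 13 fits that left out 1 tumor. Ogg1, which removes oxidised guanine, had 12.6, 19.7, 12.1 and 23.4 CPM in TP1 to TP4 against 8.96 to 13.9 CPM in GEM-BCC (0.62, SE 0.23, adjusted p = 0.0643). Ogg1 passed with DESeq2. In edgeR its value was 0.37 (adjusted p = 0.0894) with the GC trend removed and 0.17 (adjusted p = 0.667) without TP2 and TP4.

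The nucleotide excision genes behaved differently from one another. Xpc, the protein that finds bulky lesions, had 60.0, 79.1 and 114 CPM as lowest, median and highest GEM-BCC value and 46.4, 62.2, 46.5 and 50.2 CPM in TP1 to TP4, so 3 of 4 Tp-BCC tumors were below every GEM-BCC tumor. It fell by 0.70 on the log2 scale (SE 0.20, adjusted p = 0.0248), by 0.83 (adjusted p = 0.00394) with the GC trend removed and by 0.84 (adjusted p = 0.0380) without TP2 and TP4, and the call was lost without TP1 or TP3 (adjusted p up to 0.0637). Xpa, which verifies the lesion, had a log2 fold change of 0.02 (adjusted p = 0.976), and Ercc1, part of the nuclease that cuts beside it, of 0.44 (adjusted p = 0.165).

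**Figure D4:**
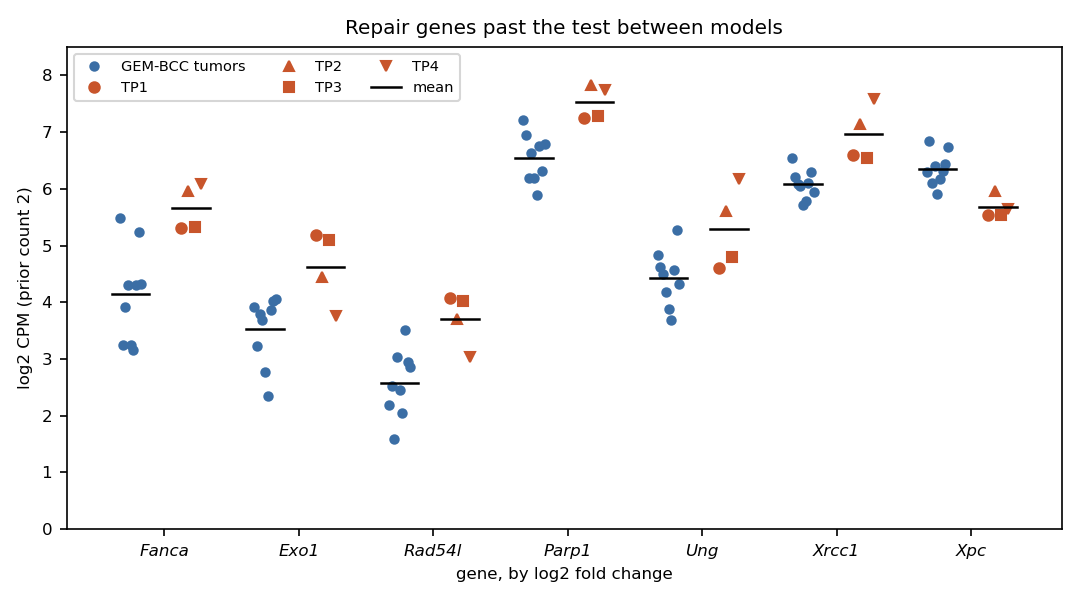
Log2 CPM of the 7 repair genes past the test in the 9 GEM-BCC tumors (blue) and in TP1 to TP4 (orange, 1 symbol per tumor), with the mean of each model as a line. TP2 and TP4 are the highest Tp-BCC tumors for Fanca, Parp1, Ung and Xrcc1 and the lowest for Exo1 and Rad54l. For Xpc, the gene that fell, TP2 and TP4 lie above TP1 and TP3.

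In damage signalling 0 of 5 genes passed in edgeR (19.4% of all genes) or DESeq2 (26.0%). Only Chek2 of the 5 reached an unadjusted p under 0.05, as did 4964 of all 14390 tested genes. Atm, the kinase activated by double-strand breaks, had 18.9, 35.0 and 43.2 CPM in GEM-BCC and 26.6, 2.19, 33.4 and 6.57 CPM in TP1 to TP4 (−0.99, SE 0.50, adjusted p = 0.172), and for Atr the log2 fold change came to −0.68 (SE 0.59, adjusted p = 0.435). The TP2 and TP4 values of Atm rest on 34 and 92 counts and those of Atr on 26 and 36. Without TP2 and TP4 the log2 fold changes were −0.19 for Atm and 0.21 for Atr. Atm fell by 0.86 (SE 0.30, adjusted p = 0.0429) with the GC trend removed.

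The checkpoint kinases downstream of them were higher in TP1 and TP3. Chek1, the target of Atr, had 4.50, 10.9 and 16.9 CPM in GEM-BCC and 25.7, 3.73, 29.2 and 6.85 CPM in TP1 to TP4 (0.63, SE 0.45, adjusted p = 0.342). Chek2, the target of Atm, had 7.15, 11.6 and 14.3 CPM in GEM-BCC and 21.0, 17.04, 18.8 and 8.64 CPM in TP1 to TP4 (0.54, SE 0.26, adjusted p = 0.144). For Chek2 all Tp-BCC tumors but TP4 were above the GEM-BCC range. Both rose with the GC trend removed, Chek1 by 0.82 (adjusted p = 0.0276) and Chek2 by 0.88 (adjusted p = 0.00360), and both rose without TP2 and TP4 (1.37, adjusted p = 0.0312, and 0.83, adjusted p = 0.0492). H2ax, the best expressed of the 46 genes per kilobase (median 63.9 CPM per kb in GEM-BCC and 70.8 in Tp-BCC), differed by 0.09 on the log2 scale (SE 0.40, adjusted p = 0.895).

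Promoters of 36 of the 46 genes were found in the RefSeq promoter table of GRCm38.p6, which holds 250 bases before and 50 after each start site. They were searched on both strands for words of cell cycle promoters, with E2F sites as TTTGGCGC, TTTCGCGC or TTTCCCGC, CHR elements as TTTGAA or TTTAAA, and CCAAT. An E2F word was present in 7 of the 36 genes (19.4%; 3.85% of the 11441 tested genes with a promoter and 2.12% of all 27025), namely Brca2, Bard1, Fancg, Xrcc6, Msh3, Msh6 and Chek2, and in Msh3 it occurred in 2 overlapping copies. In the 150 bases before the start alone it was present in 2 of the 36 (5.56%, against 2.22% of the tested genes). CCAAT was present in 22 (61.1%, against 42.7% and 41.1%) and a CHR word in 6 (16.7%, against 22.5% and 30.6%). Of the 7 genes past the test 5 have a promoter in the table, and 0 of these 5 held an E2F word, 0 a CHR word and 3 CCAAT.

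The 250 bases before the start are shown for 4 of the genes that rose, 5′ to 3′ on the strand of the gene, and for Chek2, which holds an E2F word. Capitals mark the words, on either strand. The positions on GRCm38.p6 are chr4:116123691-116123940 for Rad54l and chr8:123318577-123318826 for Fanca, both on the minus strand, and chr7:24546449-24546698 for Xrcc1, chr1:180568641-180568890 for Parp1 and chr5:110839733-110839982 for Chek2, on the plus strand. CCAAT starts 50 bases before the start in Rad54l, 50 and 23 bases before it in Fanca and, reversed, 87 bases before it in Xrcc1. Parp1 holds none of the words.
Rad54l: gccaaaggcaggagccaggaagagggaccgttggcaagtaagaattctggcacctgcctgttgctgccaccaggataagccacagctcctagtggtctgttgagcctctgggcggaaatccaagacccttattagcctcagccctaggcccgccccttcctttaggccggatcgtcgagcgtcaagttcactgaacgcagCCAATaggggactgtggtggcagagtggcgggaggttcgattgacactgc
Fanca: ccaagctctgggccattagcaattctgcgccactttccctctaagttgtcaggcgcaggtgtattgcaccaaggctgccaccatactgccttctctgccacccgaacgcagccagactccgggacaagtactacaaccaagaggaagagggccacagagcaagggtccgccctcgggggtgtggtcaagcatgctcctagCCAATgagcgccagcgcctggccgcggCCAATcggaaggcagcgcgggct
Xrcc1: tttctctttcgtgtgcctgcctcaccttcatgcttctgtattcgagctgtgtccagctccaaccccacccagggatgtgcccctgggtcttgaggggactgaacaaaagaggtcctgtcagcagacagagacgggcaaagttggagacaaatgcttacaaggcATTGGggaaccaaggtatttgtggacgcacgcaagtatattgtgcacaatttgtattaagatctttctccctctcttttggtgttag
Parp1: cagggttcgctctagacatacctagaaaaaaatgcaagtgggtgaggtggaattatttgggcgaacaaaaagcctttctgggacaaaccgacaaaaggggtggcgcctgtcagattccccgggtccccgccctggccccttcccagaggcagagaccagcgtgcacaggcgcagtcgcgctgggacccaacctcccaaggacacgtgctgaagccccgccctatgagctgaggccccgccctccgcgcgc
Chek2: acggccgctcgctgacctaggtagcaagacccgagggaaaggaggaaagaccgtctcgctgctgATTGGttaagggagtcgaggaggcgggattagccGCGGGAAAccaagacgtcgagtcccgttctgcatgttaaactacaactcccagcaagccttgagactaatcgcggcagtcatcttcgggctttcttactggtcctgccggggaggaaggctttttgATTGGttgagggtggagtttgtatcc

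Many repair genes are known to be transcribed most before and during DNA replication. Of 26 listed proliferation genes 10 rose in Tp-BCC, against 11.1% of all tested genes. With the GC trend removed 18 of the 26 rose, against 15.1% of all tested genes. Before that removal the log2 fold change of all 26 was above 0. Their summed level was 395 to 1708 CPM in GEM-BCC tumors and 2497, 1650, 2722 and 1536 CPM in TP1 to TP4, so TP1 and TP3 lay above the GEM-BCC range and TP2 and TP4 inside it. With the mean level of this list as a covariate, 4 repair genes were higher in Tp-BCC (8.70% of the 46, against 1869 of all 14390 genes) and 11 lower (23.9%, against 1893 of all genes, or 13.2%), with a median log2 fold change of −0.55. In all 15 passed, where 26.1% of all genes did. Fanca (1.299), Xrcc1 (1.03), Parp1 (1.07) and Ogg1 (0.71) passed upward. Atm and Prkdc (both −2.21) were the 2 past the fold threshold downward, as were 4.52% of all genes. Brca1, Palb2, Rad54b, Blm, Wrn, Brip1, Fancm, Polq and Xpc passed downward with −1.89 to −0.67. Rad54l (0.72, adjusted p = 0.149) and Exo1 (0.49, adjusted p = 0.239) did not pass. With the GC trend removed as well, 0 repair genes were higher (4.16% of all genes) and Prkdc and Xpc were lower (3.54%). Of the other marker lists, 3 of 3 tested adipocyte and 3 of 6 endothelial genes rose, with summed levels of 0.40 to 3.26 and 79.2 to 220 CPM over GEM-BCC tumors against 10.7 to 84.3 and 230.6 to 318 CPM over Tp-BCC tumors. Skeletal muscle genes summed to 2.52 to 8.44 CPM in GEM-BCC tumors and to 156.9 CPM in TP4, and 1 of 3 tested rose. Of 5 differentiated keratinocyte genes 0 had a log2 fold change above 0 and 2 fell (median −2.80), with sums of 12.0 to 296 CPM in GEM-BCC and 8.18, 8.87, 8.26 and 10.99 CPM in TP1 to TP4. Of 8 fibroblast genes 3 rose and 1 fell, of 8 leukocyte genes 1 rose and 2 fell, and of 10 basal keratinocyte and BCC genes 1 rose. Over all tested genes 11.1% rose and 8.35% fell. The part of these cells in the repair gene levels was not tested.

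Among the GEM-BCC tumors, GEM8 had the highest level of 21 of the 46 repair genes and GEM6 the lowest of 18. Their summed levels of proliferation genes were the highest (1708 CPM) and the lowest (395 CPM) of the model. Homologous recombination genes in GEM8 had a median of 0.72 above the GEM-BCC mean on the log2 scale and in GEM6 of −0.77. GEM1 was the lowest in 13 genes. Tumors of the same mouse differed by a median of 0.32 (GEM2 and GEM3) and 0.37 (GEM7 and GEM8) on the log2 scale over the 46 genes, within the 0.18 to 0.84 (median 0.47) of the 34 comparisons between mice. Single genes differed more, with Fancc 1.42 lower in GEM2 than in GEM3 (log2 difference −1.42) and H2ax lower in GEM7 than in GEM8 (−1.04).

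In Tp-BCC, TP1 and TP3 differed by a median of 0.17 over the 46 genes and TP2 and TP4 by 0.62, while tumors of the 2 kinds differed by 1.05 to 1.56. TP3 held the highest Tp-BCC level of 21 genes and TP4 the lowest of 24. Relative to the GEM-BCC mean, homologous recombination genes had medians of 0.76, −0.80, 0.83 and −1.64 in TP1 to TP4, and excision repair genes of 0.17, 0.85, 0.15 and 1.10. The order of the 4 tumors was thus reversed between these groups.

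A wider list of other repair genes was written from general knowledge and not by how the genes moved, though earlier results of these data were known. It had 106 tested genes, of which 13 rose and 4 fell (median log2 fold change 0.01), where 11.1% of all tested genes rose and 8.35% fell. The 10 of smallest p are named. Mlh3, a mismatch repair partner also used in meiosis, had 9.48, 14.98 and 17.5 CPM as lowest, median and highest GEM-BCC value and 1.71, 0.51, 2.63 and 0.14 CPM in TP1 to TP4, below every GEM-BCC tumor (−3.47, SE 0.54, adjusted p = 0.0005457). Poli, a translesion polymerase that copies past damaged bases, also fell without overlap, by 2.17 (SE 0.35, adjusted p = 0.0006619), from 13.3 to 29.0 CPM in GEM-BCC to 6.36, 3.22, 5.99 and 2.07 CPM in TP1 to TP4. Aptx, which cleans abortive ligation ends, fell by 1.27 (SE 0.25, adjusted p = 0.00271). The 0.14 CPM of Mlh3 in TP4 lies below the 0.57 CPM of Polq there, which came from 8 counts. This Mlh3 value thus rests on fewer counts still.

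Upward, the largest log2 fold changes of these 10 were those of Mgmt, which reverses guanine methylation (1.55, SE 0.32, adjusted p = 0.00389), Timeless, which protects replication forks (1.43, SE 0.23, adjusted p = 0.000774), and Apex2, an endonuclease of base excision (1.38, SE 0.20, adjusted p = 0.0002599). Apex2 had 6.65 to 10.95 CPM in GEM-BCC tumors and 22.3, 19.6, 20.7 and 25.6 CPM in TP1 to TP4, so the 4 Tp-BCC tumors lay close together. Swi5, a recombination cofactor (1.09), Tdp1, which frees trapped topoisomerase (1.07), Rad9a of the checkpoint clamp (0.91) and Alkbh3, a demethylase (0.85), rose too, with adjusted p of 0.0003915 to 0.00567. All 10 remained past the test with the GC trend removed, and 8 did without TP2 and TP4. Mgmt (adjusted p = 0.139) and Rad9a (adjusted p = 0.0730) did not pass there. The 10 were picked for the smallest p in these same tumors, so this is not a separate check of them. Of all 106 genes 28 passed with the GC trend removed (29.0% of all tested genes) and 14 without TP2 and TP4 (10.4%).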

How the data were processed

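Poly(A) RNA of 13 tumors was sequenced, and the authors cleaned reads with SOAPnuke, aligned them with Bowtie2 2.3.4.3 to mouse transcripts of GRCm39 and quantified them with RSEM 1.3.1 (versions from the submitters' processing notes). The deposited table holds the resulting expected counts per gene, not normalized, with 3.12% fractional values. A read shared between genes is divided between them, but 0 of the 46 genes shared over 10% of their 100-base words with another gene in GENCODE vM21.

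Counts were rounded in R 4.3.3. Of 21100 genes, 16687 had values in all tumors, and the 14390 that reached 10 counts in 4 or more tumors entered edgeR 4.0.16 (TMM, robust quasi-likelihood test, no covariate, 2-sided, Benjamini-Hochberg adjustment over all tested genes). SEs are the log2 fold change divided by the root of F. CPM use TMM factors, and log2 CPM a prior count of 2. Scripts were tested on simulated data. Depth was 15388027 to 32629102 counts per tumor, and p-values measure the spread between tumors.

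GC content came from the longest coding transcript of each gene in GENCODE vM21 (GRCm38), matched by symbol. For the fit with the GC trend removed, deviations of log2 CPM from gene means were, per tumor, smoothed against GC content (lowess, span 0.3) and the trend entered as an offset. Alternatives were DESeq2 1.42.0, other normalizations, filters and dispersions, counts summed per mouse, length trends, a proliferation covariate, a replicate block and each tumor left out. Fits without TP2 and TP4 or without TP1 and TP3, with GC and length trends, and with GC trend and proliferation covariate were chosen after seeing the data.

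The 46 genes and all lists were chosen with earlier results of these data known. Any of the 46 may be named. Values of every Tp-BCC tumor are given for genes past the test, for up to 2 of the best expressed per kilobase in each pathway and for genes chosen after their values were seen (Brca1, Atm, Atr, Chek1, Prkdc, Ogg1, Xrcc3 and Fancb). Of the other repair genes, the 10 of smallest p are named.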

Additional observations from a re-analysis of the deposited data

Results flagged for a closer look

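Of 92 groups of values (46 genes in each model), 2 held a tumor that stood apart by Dixon's test, which chance alone flags in about 1 of 20 groups. Nbn had a log2 CPM of 2.295 in GEM1, from 147 counts, where the nearest GEM-BCC tumor had 3.55. Fancl had a log2 CPM of 2.60 in TP2, from 93 counts, where the nearest Tp-BCC tumor had 3.72. GEM1 and TP2 are among the 3 libraries whose levels rose with GC content, and the GC content of Nbn and Fancl is 44.4% and 41.0%. The part of GC content in these values was not tested.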

How the results depend on the processing

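The 7 calls among the repair genes became 14 with the GC trend removed, 13 with GC and length trends removed, 15 with the proliferation covariate, 2 with the GC trend removed and that covariate, and 25 without TP1 and TP3. Calls above the fold threshold among the 46 went from 0 to 2 with the proliferation covariate and to 10 without TP1 and TP3. Over all tested genes such calls rose as well. They went from 801 of 14390 genes to 987 of 14390 with the covariate and to 1850 of 14275 without TP1 and TP3. The median log2 fold change of the repair genes was −0.55 with the proliferation covariate and −0.73 without TP1 and TP3. Over all tested genes the 2792 calls became 1484 without TP2 and TP4, 6119 without TP1 and TP3, 4856 with GC and length trends removed and 1109 with the GC trend removed and the covariate. The 17 calls among other repair genes became 28 with the GC trend removed, 31 with length as well, 8 with the covariate as well, and 55 without TP1 and TP3. Leaving out 1 tumor gave 4 (without TP2) to 8 repair gene calls (without GEM3), 1545 (without TP2) to 3020 calls over all genes (without GEM3; 1836 without TP4), 12 to 20 calls among other repair genes, 0 above the fold threshold and a median of −0.09 (without TP3) to 0.32 (without TP4).

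The tumor numbers do not pair the models (correlations of same-numbered tumors −0.38 to −0.10). With this number as a replicate block, 0 repair genes, 0 other repair genes and 178 of all genes were called, and no Tp-BCC tumor correlated best with its own number. Motif counts depended on the window, with an E2F word in 2 genes, not 7, in the 150 bases before the start (2.22% of tested genes). Over the alternatives the adjusted p of Xrcc1 ran from 0.0004893 to 0.480, of Parp1 from 0.00221 to 0.423 and of Ung from 0.00279 to 0.976. No called gene changed direction. Other normalizations, filters, dispersions, DESeq2, counts summed per mouse and the length trend left 6 to 8 repair gene calls. The cause of these shifts was not tested. Levels of the 46 genes in TP2 and TP4 rest on as few as 8 counts (Polq in TP4, 0.57 CPM). Mlh3, outside the 46, had a lower CPM than this in TP4.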
